A study of Mus musculus with 12 samples.

Results

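The 10 genes Klk1b24, Klk1b27, Rnase2a, Igsf23, Atp2c1, Tff3, Ppp1r42, Bmp2k, Pop4 and Zfp947 were picked because their signals in primary mouse hepatocytes differed between PGC-1alpha genotypes in the same direction under both adenoviral vectors. The genotype differences of these genes are therefore given as a description without a test, and support nothing further. The genes were found through the RefSeq accession of each probe and carried 16 probes (1 probe for 6 genes, 2 probes for 2 genes and 3 probes for 2 genes), out of 17016 named genes and 41174 probes on the array. All 16 probes were tested, as part of the 24965 probes with 3 of 3 arrays well above background in 1 or more groups. Since a probe with signal in 1 genotype alone passes this filter, passing it says nothing about the genes, and 11 of the 16 probes were well above background on all 12 arrays.

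Hepatocytes were isolated from 6 C57BL/6 mice, 3 PGC-1alpha-/- and 3 PGC-1alpha+/+, and every mouse gave a culture for each of 2 adenoviruses. The 4 groups of 3 arrays were -/- cells with a hairpin against TLS (shTLS), -/- cells with a control hairpin, +/+ cells with shTLS and +/+ cells with the control hairpin. All cultures were kept in medium with serum, 100 nM dexamethasone and 100 nM insulin, infected overnight at a multiplicity of infection of 5 and harvested at 24 h after infection, so no group was free of virus. What the PGC-1alpha-/- mice lack of the gene is not stated in the labels, nor are their age and sex. Replicate numbers name the mouse within a genotype and the independent assay across genotypes. Values below are the deposited quantile-normalized intensities on the log2 scale, in which a difference of 1 is a doubling, and they cannot be set against each other between probes. In these whole cultures a change in the number of cells that make a transcript and a change in its level per cell cannot be told apart.

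PGC-1alpha is a transcriptional coactivator that does not bind DNA itself and works through partners such as the nuclear receptors PPARalpha, HNF4alpha and ERRalpha. In liver it is known for raising genes of gluconeogenesis, fatty acid oxidation and mitochondrial respiration during fasting. TLS is an RNA-binding protein with roles in transcription and RNA processing.

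Both TLS probes were lower in every shTLS array than in the paired control array, by -1.79 (SE 0.26, adjusted p = 0.00344) and -1.70 (SE 0.27, adjusted p = 0.00581) averaged over genotypes, with limma fitted to all 12 arrays and Benjamini-Hochberg adjustment over all tested probes. The PGC-1alpha probe (Ppargc1a, A_51_P279038) was well above background on all 12 arrays, at 8.67 to 9.71 in -/- cells and 8.23 to 10.99 in +/+ cells. As the deleted part is not stated, this probe does not check the genotype. Xist was above background on all 12 arrays and 4 Y-linked genes (Ddx3y, Eif2s3y, Kdm5d and Uty) on none, so this check did not separate the genotypes. Hepatocyte markers were present on all arrays, with a summed log2 level of 17.00 to 17.36 for -/- shTLS arrays, 17.24 to 17.67 for -/- control arrays, 17.55 to 17.70 for +/+ shTLS arrays and 17.36 to 18.05 for +/+ control arrays. Every group sat at the same position of each of the 3 slides, so position on the slide and group cannot be told apart.

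Klk1b24 and Klk1b27 belong to the tissue kallikreins, secreted serine proteases that in the mouse form a large cluster of close copies and are best known from the submandibular gland. Both were readable in -/- hepatocytes and not well above background on any +/+ array. Klk1b24 (A_51_P249180, NM_010643) read 8.90, 9.07 and 9.78 in -/- shTLS cells and 7.71, 6.57 and 8.64 in -/- control cells, against 1.99, 2.72 and 2.60 in +/+ shTLS cells and 1.06, 1.13 and 1.06 in +/+ control cells. The lowest -/- array stood 3.86 log2 units above the highest +/+ array. Its signal was at least 53.4-fold higher in -/- than in +/+ cells with shTLS and at least 16.2-fold higher with the control hairpin. For these bounds the dim group was put at the lowest signal that was well above background on each of its arrays.

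Klk1b27 (A_51_P419656, NM_020268) was dimmer, at 5.38, 5.07 and 5.89 in -/- shTLS cells and 4.07, 2.66 and 4.70 in -/- control cells, against 1.26, 1.24 and 1.33 in +/+ shTLS cells and 1.32, 1.30 and 1.25 in +/+ control cells. It was well above background on 3 of 3 -/- shTLS arrays, 2 of 3 -/- control arrays and 0 of 6 +/+ arrays. The genotypes did not overlap, though the lowest -/- array, control 2 at 2.66, was itself not well above background. The -/- signal was at least 3.83-fold higher with shTLS and at least 1.14-fold higher with the control hairpin. Deviations of the 2 kallikreins from their group means ran together over the 12 arrays (r = 0.91). As Klk1b27 hardly varied below background in +/+ cells (SD 0.05 with shTLS and 0.03 with control), this value rests mainly on the -/- arrays. The probe whose log2 values were most like both was annotated to NM_010115 (r = 0.971 with Klk1b24 and 0.973 with Klk1b27, 12 arrays), an accession that the annotation used here does not pair with a symbol. Next most like each was the other kallikrein (r = 0.968), and these likeness values hold the genotype difference.

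The 2 genes lie side by side on chromosome 7 in the order of tested genes, and the 250 bases before their RefSeq starts (GRCm38.p6) are printed because of how close the copies are. Klk1b24 is at chr7:44187986-44188235 and Klk1b27 at chr7:44052040-44052289, both on the plus strand. Capitals mark bases with no identical partner in a global alignment of the pair, which had 218 identical columns of 264 (82.6%).
Klk1b24: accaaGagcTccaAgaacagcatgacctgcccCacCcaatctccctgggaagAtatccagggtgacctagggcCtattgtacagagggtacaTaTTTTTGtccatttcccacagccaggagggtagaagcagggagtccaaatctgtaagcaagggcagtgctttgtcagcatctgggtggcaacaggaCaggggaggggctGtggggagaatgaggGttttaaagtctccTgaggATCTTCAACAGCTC
Klk1b27: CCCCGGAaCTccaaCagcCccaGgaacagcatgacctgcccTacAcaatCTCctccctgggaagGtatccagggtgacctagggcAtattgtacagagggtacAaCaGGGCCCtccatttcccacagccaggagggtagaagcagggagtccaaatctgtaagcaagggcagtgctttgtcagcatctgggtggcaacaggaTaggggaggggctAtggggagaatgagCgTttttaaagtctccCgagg
Against the 12 other Klk1b upstream sequences the identity of Klk1b24 had a median of 75.2% and that of Klk1b27 a median of 72.6%, and for each the closest was the other. Copies this close may share probe signal, and cross-hybridization was not tested.

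Neighbouring kallikreins were read in the order of the annotation. Klk1b21, next to Klk1b27, was well above background on 5 of 6 -/- arrays and 0 of 6 +/+ arrays, and the genotypes did not overlap. Its lowest -/- array, control 2 at 3.02, was the one not well above background, so that gap lies between readings near background. Its signal in -/- cells was at least 2.91-fold higher with shTLS and at least 1.26-fold higher with the control hairpin. Klk1b3, next to Klk1b24, was well above background on 6 of 6 -/- arrays and 2 of 6 +/+ arrays and differed by 2.76, and Klk1 differed by 1.24, both with overlapping arrays. Klk1b8 differed by 0.31 and Klk1b4 by -0.19, also with overlap. Among 26 tissue kallikrein genes looked for, 22 had a probe and 9 besides the 2 described above had a tested probe. Of those 9, Klk1b21 was the only non-overlapping gene and their median difference was 0.31.

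**Figure D1:**
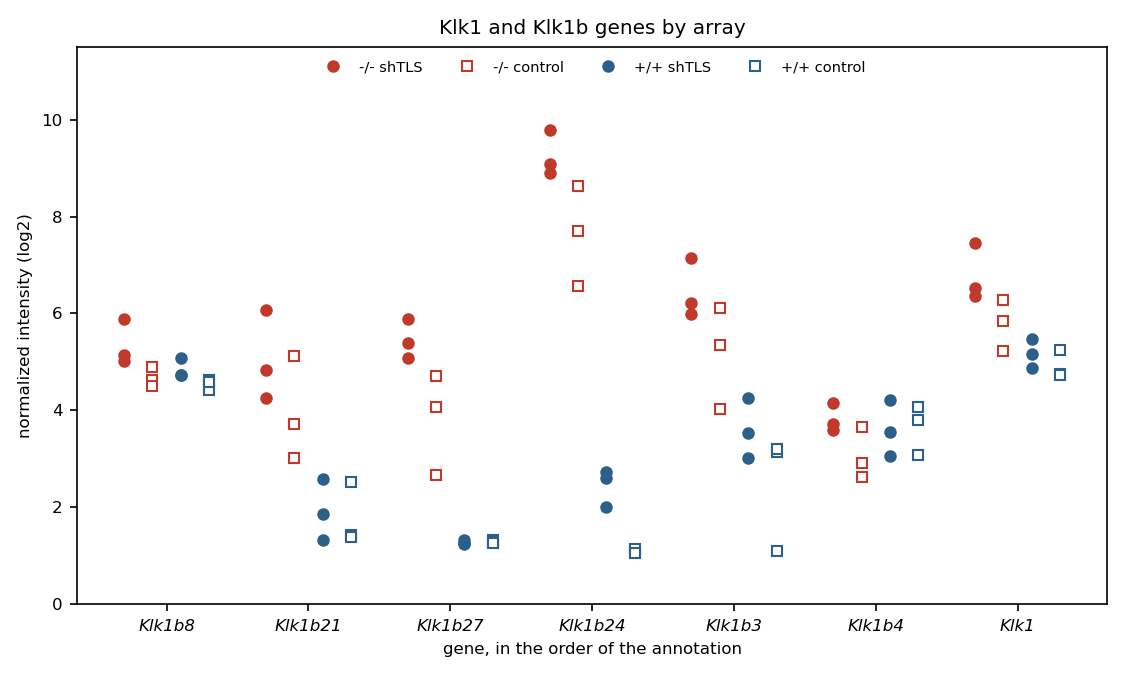
Normalized intensity (log2, vertical axis) of the tested Klk1 and Klk1b genes in annotation order (horizontal axis), 1 point per array, filled circles for shTLS and open squares for control, red for -/- and blue for +/+. Klk1b24 and Klk1b27 in -/- cells stand 3.86 and 1.33 log2 units clear of +/+ cells, Klk1b21 stands 0.45 clear, and Klk1b8, Klk1b3, Klk1b4 and Klk1 overlap. The lowest -/- array of Klk1b27 and of Klk1b21 was not well above background, nor was any of their +/+ arrays.

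Rnase2a encodes an eosinophil-associated ribonuclease of the RNase A superfamily. Its probe (A_51_P455338, NM_053113, chromosome 14) read 8.76, 8.08 and 7.55 in -/- shTLS cells and 9.43, 9.44 and 8.29 in -/- control cells, against 3.49, 3.05 and 2.76 in +/+ shTLS cells and 5.84, 2.85 and 4.81 in +/+ control cells. All 6 -/- arrays lay above all 6 +/+ arrays, with a gap of 1.71, and 2 of 3 +/+ control arrays and 0 of 3 +/+ shTLS arrays were well above background. The difference was 4.56 with the control hairpin, and with shTLS the -/- signal was at least 23.8-fold higher.

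Of 6 other RNase A genes with a tested probe none was free of overlap. Rnase4 came closest, with differences of 1.79 and 1.68 on its 2 probes. Ear1, another eosinophil-associated ribonuclease, differed by 1.23 with wide overlap. Ang, Rnase1 and Ang2, the nearest tested genes on one side of Rnase2a, differed by 0.55, 0.18 and 0.75.

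Markers of macrophages and Kupffer cells moved the same way as Rnase2a between genotypes. All 11 tested genes of the 13 listed had a higher mean in -/- cells on each of their probes (median 1.51, range 0.13 to 2.55 over 13 probes), and every one of them overlapped between genotypes. The summed log2 level of the list was 13.07 to 14.90 for -/- shTLS, 13.62 to 16.44 for -/- control, 12.45 to 13.51 for +/+ shTLS and 12.76 to 14.09 for +/+ control arrays. Marco, a scavenger receptor, averaged 10.96 in -/- shTLS and 13.60 in -/- control cells, against 8.89 in +/+ shTLS and 11.06 in +/+ control cells. Of the eosinophil and neutrophil markers Epx, Il5ra and Elane were not well above background on any array. The part of these cells in the Rnase2a result was not tested. Other marker lists had median genotype differences of 0.81 (eosinophil and neutrophil), 0.91 (stellate), 0.55 (endothelial), -0.32 (pancreatic acinar), 0.11 (male-biased liver) and -0.60 (female-biased liver). Only the last held probes without overlap, 3 of Cyp2b9 and Cyp2b13.

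Igsf23 encodes a membrane protein of the immunoglobulin superfamily, and both of its probes separated the genotypes. On A_51_P281778 (NM_027308, chromosome 7) it read 11.77, 10.73 and 10.77 in -/- shTLS cells and 11.62, 10.70 and 10.75 in -/- control cells, against 6.44, 8.36 and 5.66 in +/+ shTLS cells and 7.40, 8.37 and 6.47 in +/+ control cells. On A_52_P185119 it read 9.20, 8.38 and 8.07 in -/- shTLS cells and 9.12, 8.55 and 8.18 in -/- control cells, against 4.20, 5.45 and 1.38 in +/+ shTLS cells and 5.10, 5.04 and 3.93 in +/+ control cells. All -/- arrays lay above all +/+ arrays, by 2.33 and 2.62 at the narrowest. The probes had r = 0.98 over the 12 arrays, a value that holds the genotype difference on which the gene was picked. The spread was wider in +/+ cells, and +/+ mouse 2 was the highest of its genotype on 3 of the 4 probe and vector combinations. The difference was 4.27 with shTLS and 3.61 with the control hairpin on the brighter probe, and 4.87 and 3.93 on the dimmer. The brighter probe was well above background on all 12 arrays. The dimmer was so on 2 of 3 +/+ shTLS arrays and 3 of 3 in each other group, so its 4.87 rests in part on the array at 1.38.

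Igsf23 is printed because, of 10 upstream sequences that RefSeq gave for 8 of the genes, 1 of its 2 held AAGGTCA, the core site that nuclear receptors such as the partners of PGC-1alpha bind. The letters were searched on both strands and were held by 4.08% of 32851 mouse upstream sequences of the same length. The sequence below runs over chr7:19950744-19950993 on the minus strand (GRCm38.p6), with the match in capitals, 72 bases before the start and on the opposite strand.
Igsf23: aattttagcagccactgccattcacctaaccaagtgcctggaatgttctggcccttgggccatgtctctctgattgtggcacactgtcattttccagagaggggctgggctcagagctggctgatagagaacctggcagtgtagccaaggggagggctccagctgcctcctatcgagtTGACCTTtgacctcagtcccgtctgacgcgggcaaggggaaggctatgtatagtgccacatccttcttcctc
A match is a description of letters and no evidence of binding. TATAAA was in none of the 10 sequences, TGTTTAC was in 1 of Atp2c1 and TGACGTCA in that of Pop4, against 12.4%, 3.17% and 1.55% of all upstream sequences. The 6 patterns searched also included CCAAT, in 4 of the 10 against 33.8%, and CACGTG, in 1 of the 10 against 6.02%.

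Atp2c1 encodes the calcium and manganese pump of the Golgi membrane, and its 3 probes, all annotated to NM_175025 on chromosome 9, disagreed. Probe A_52_P121812 read 10.05, 9.84 and 9.87 in -/- shTLS cells and 10.11, 9.87 and 9.78 in -/- control cells, against 8.65, 7.28 and 7.90 in +/+ shTLS cells and 8.65, 7.35 and 8.0 in +/+ control cells. Its genotypes were apart by 1.13 at the narrowest, and its difference was 1.98 with shTLS and 1.92 with the control hairpin. Probes A_52_P397722 and A_52_P611956 overlapped, with differences of -0.18 and -0.09 with shTLS and -0.02 and 0.08 with the control hairpin. These 2 probes ran together (r = 0.80). The separating probe had r = -0.19 and -0.06 with them, values that hold its own genotype difference. The genotype difference of Atp2c1 was thus seen on 1 of 3 probes. Other calcium pumps, from 8 tested probes of 5 genes, differed by -0.16 to 0.46 and all overlapped.

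Tff3, a trefoil peptide that goblet cells secrete with mucin and that takes part in mucosal repair, was lower in -/- cells. Its probe (A_51_P456208, NM_011575, chromosome 17) read 3.06, 4.82 and 2.80 in -/- shTLS cells and 2.32, 5.06 and 1.79 in -/- control cells, against 9.93, 11.83 and 10.54 in +/+ shTLS cells and 9.98, 12.01 and 9.17 in +/+ control cells. It was well above background in 6 of 6 +/+ arrays and in 2 of 6 -/- arrays, those of -/- mouse 2. All -/- arrays lay below all +/+ arrays with a gap of 4.11, and the difference was -7.21 with shTLS and -7.33 with the control hairpin, each resting on a -/- group with 1 of 3 arrays well above background. The culture of mouse 2 had the highest signal of its genotype under both vectors, in -/- and in +/+ cells.

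Tff1, which lies next to Tff3, differed by -0.11 with overlap, and Tff2 was not well above background on any array. Of the other goblet cell markers Agr2 was not well above background on any array and Spdef differed by -0.72 with overlap. Cholangiocyte markers had a median difference of -0.35 over 9 tested probes, all overlapping, with a summed log2 level of 14.23 to 16.00 for -/- shTLS, 15.64 to 17.75 for -/- control, 14.25 to 15.47 for +/+ shTLS and 15.35 to 17.15 for +/+ control arrays. The part of other epithelial cells in the Tff3 result was not tested.

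Ppp1r42, a leucine-rich repeat protein that regulates protein phosphatase 1, was the gene whose tested probe followed Tff3 most closely (r = 0.952 over 12 arrays, 0.85 for deviations from group means). Its probe (A_51_P259186, NM_145692, chromosome 1) read 8.74, 10.12 and 9.73 in -/- shTLS cells and 8.0, 8.93 and 8.09 in -/- control cells, against 10.92, 12.03 and 11.64 in +/+ shTLS cells and 11.37, 12.38 and 11.06 in +/+ control cells. The -/- arrays lay below the +/+ arrays without overlap, by 0.81 at the narrowest. The difference was -2.0 with shTLS and -3.26 with the control hairpin. Ppp1r7 and Ppp1r37, other leucine-rich regulators of the phosphatase, differed by -0.23 to 0.17.

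Bmp2k encodes the BMP-2-inducible kinase, of the Numb-associated kinases that act in clathrin-mediated endocytosis. Of its 3 probes (NM_080708, chromosome 5) only A_51_P337944 separated the genotypes, at 6.77, 6.27 and 7.35 in -/- shTLS cells and 6.59, 6.97 and 7.15 in -/- control cells, against 9.13, 10.73 and 9.80 in +/+ shTLS cells and 9.39, 10.94 and 10.11 in +/+ control cells. The gap was 1.77, and the difference was -3.09 with shTLS and -3.24 with the control hairpin. A_52_P392517 and A_52_P532349 overlapped, with differences of -0.05 and -0.49 with shTLS and -0.21 and -0.57 with the control hairpin. The probes had r = 0.39 and 0.56 with the separating probe, which hold its genotype difference, and 0.71 with each other. Aak1, Gak and Stk16, the other kinases of the family, overlapped on all 6 tested probes.

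Pop4 encodes a protein subunit shared by RNase P, which trims the leader of tRNA precursors, and RNase MRP, which acts on ribosomal RNA. Both probes (NM_025390, chromosome 7) separated the genotypes, by different amounts. A_52_P206492 read 11.10, 11.33 and 11.48 in -/- shTLS cells and 10.96, 10.81 and 10.85 in -/- control cells, against 13.87, 13.41 and 13.84 in +/+ shTLS cells and 13.51, 12.99 and 13.75 in +/+ control cells. A_51_P125117 read 11.23, 11.46 and 11.67 in -/- shTLS cells and 11.03, 11.00 and 10.98 in -/- control cells, against 12.89, 12.41 and 12.73 in +/+ shTLS cells and 12.52, 11.87 and 12.65 in +/+ control cells. The -/- arrays were the lower ones on both, with gaps of 1.51 and 0.20. The differences with shTLS were -2.41 and -1.22, and with the control hairpin -2.54 and -1.34. The probes had r = 0.98, a value that holds the genotype difference on which the gene was picked. Among 11 other RNase P and MRP genes with a tested probe, Rpp14 was lower by -1.27 without overlap and the rest overlapped, with a median of 0.04 over 14 probes.

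Zfp947, a zinc finger gene in a run of related genes on chromosome 17, was lower in -/- cells. Its probe (A_51_P100379, NM_177596) read 5.46, 5.61 and 5.23 in -/- shTLS cells and 5.44, 5.25 and 5.67 in -/- control cells, against 7.65, 6.92 and 7.35 in +/+ shTLS cells and 7.33, 6.92 and 7.25 in +/+ control cells. The genotypes were apart by 1.25 at the narrowest, and the difference was -1.87 with shTLS and -1.71 with the control hairpin. Pop4 and Zfp947 were each the most like the other over the 12 arrays (r = 0.973). By the same measure Atp2c1 was most like Rnase2a (r = 0.944), and the symbols nearest to Igsf23, Bmp2k and, after Tff3, Ppp1r42 were Galnt11 (r = 0.936), Zfp146 (r = 0.948) and Adra2a (r = 0.931). These correlations over all 12 arrays share the genotype difference that chose the genes.

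**Figure D2:**
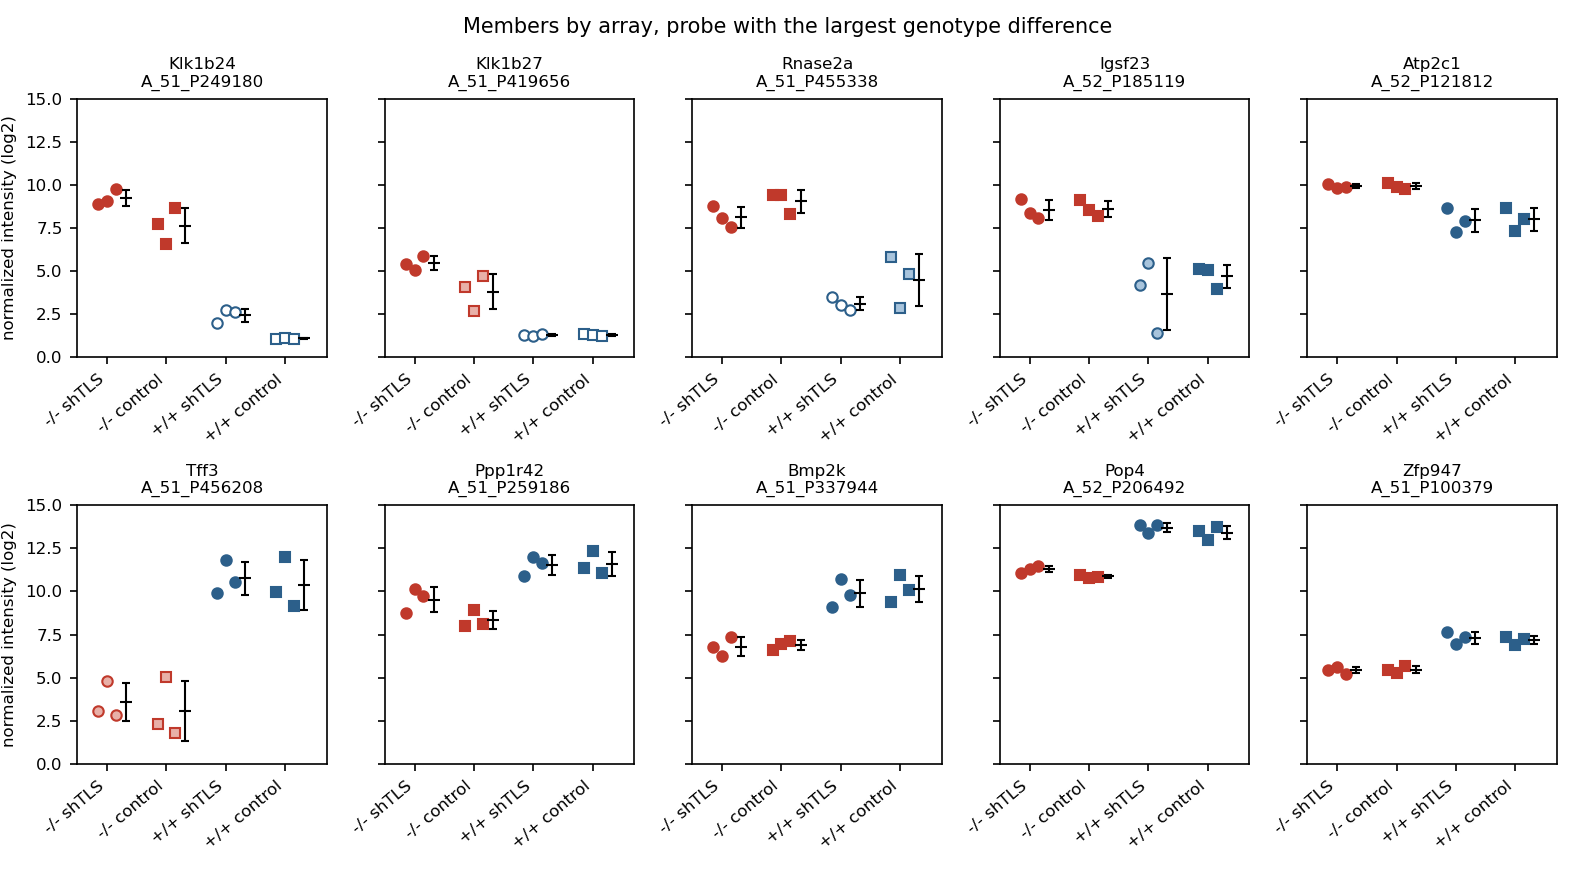
Normalized intensity (log2, vertical axis) of the 10 genes by group (horizontal axis), 1 panel per gene on the probe with the widest genotype difference. Points are arrays, filled where all 3 arrays of the group were well above background, pale where some were and open where none was, and black marks are the mean ± SD of 3 arrays. In each panel the 6 -/- arrays (red) and the 6 +/+ arrays (blue) do not overlap.

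**Figure D3:**
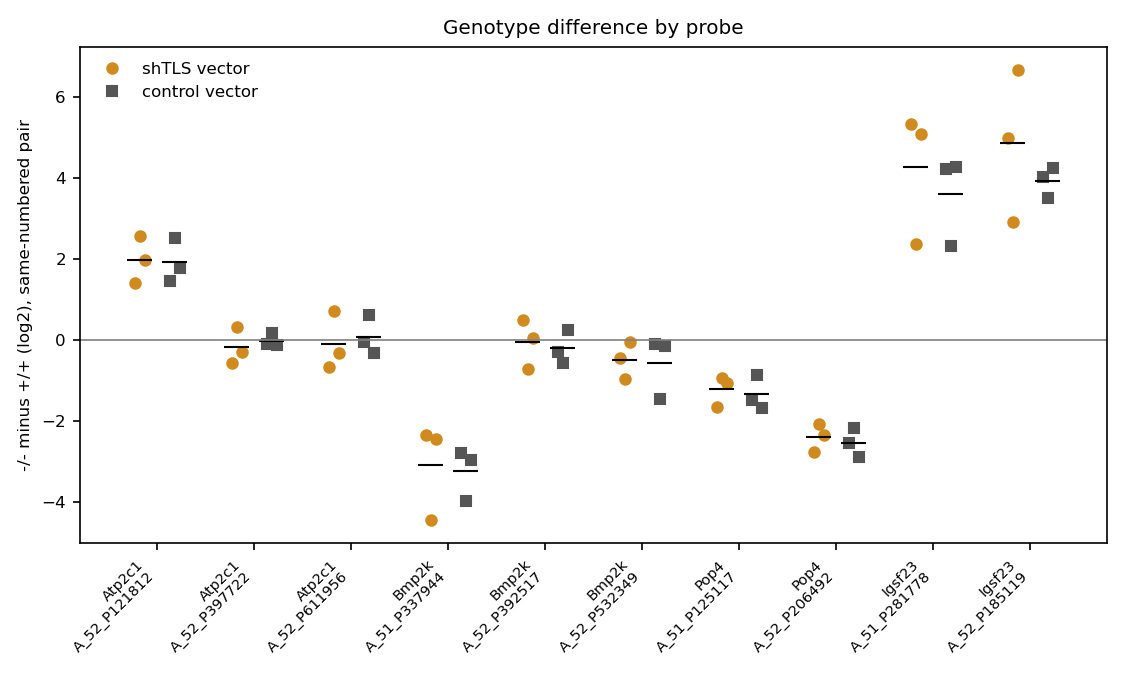
Genotype difference (-/- minus +/+, log2, vertical axis) of same-numbered pairs for every probe of the 4 genes with more than 1 probe (horizontal axis), circles for shTLS and squares for the control hairpin, with bars at the mean of 3 pairs. The probes of Igsf23 and of Pop4 lie on 1 side of 0, while 2 of 3 Atp2c1 probes and the Bmp2k probe A_52_P392517 have pairs on both sides of 0. The Bmp2k probe A_52_P532349 is below 0 in all 6 pairs, though its arrays overlap between genotypes.

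Over the 16 probes, 12 had no overlap between the 6 -/- and 6 +/+ arrays, against 0.733% of all tested probes. In the fit averaged over vectors, with the mouse as a random block, 9 of the 16 were called at an adjusted p under 0.05 against 0.0881% of all (22 probes). With the control hairpin 6 of 16 were called against 0.0801% of all, and with shTLS 6 of 16 against 0.0721%. As the genes were chosen on this contrast, nothing is read from these shares. Of the 22 probes called, 9 had a matched symbol and all 9 belonged to the 10 genes, each of which had 1 called probe except Ppp1r42, which had none. In the order of this fit Klk1b24 was at place 1 and Ppp1r42 at place 10 among probes with a symbol. The probes just beyond were the dimmer Igsf23 probe (4.40), Klk1b21, Nudcd3 (1.33) and Stbd1 (-2.31).

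With spot and background medians in place of the processed signal, normexp and an offset of 50, which changed together, the averaged difference was 2.51 for Klk1b24, 0.46 for Klk1b27, 1.98 for Rnase2a, 2.02 for the dimmer Igsf23 probe, -3.83 for Tff3 and -0.88 for Zfp947, all with the same sign as before. Which of these steps moved the values was not tested. Scaling to spike-in controls moved the median genotype difference of all probes to 0.16, against 0.01 as deposited, and left the sign of all 12 separating probes.

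The hairpin against TLS was not used to choose the genes, and its effect, averaged over genotypes, was tested. Of the 16 probes 1 passed, against 7.78% of all tested probes (4.53% higher and 3.25% lower with shTLS). That probe was Klk1b24, which rose with shTLS by 1.48 (SE 0.33, limma adjusted p = 0.0238) and was higher in all 6 pairs of cultures. In -/- cells, where it was measurable, it was higher by 1.61 (SE 0.46), while it was not well above background on any +/+ array. The +/+ pairs and the +/+ part of the average thus rest on readings that were not well above background. Over all alternatives run the adjusted p was 0.000719 to 0.101, and the call depended on single arrays. Without -/- control 1, -/- shTLS 2, -/- shTLS 3, +/+ control 1, +/+ shTLS 2 or +/+ shTLS 3 the adjusted p was 0.0594, 0.0513, 0.0652, 0.0544, 0.0513 or 0.0638. It was also lost with spike-in scaling (0.69, adjusted p = 0.101) and with normexp (0.66, adjusted p = 0.0726). The median effect over the 16 probes was 0.31, against -0.02 over all probes, and 10 of 16 were above 0 against 48.6% of all.

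With the replicate number as a block, 4 of the 16 probes were called, all higher with shTLS, against 28.8% of all, or 14.7% of all in that direction. Klk1b24 (limma adjusted p = 0.00627) was joined by Klk1b27 (0.81, adjusted p = 0.0432), Ppp1r42 (0.56, adjusted p = 0.0497) and the Atp2c1 probe A_52_P397722 (0.46, adjusted p = 0.0415). The last did not separate the genotypes and was higher with shTLS in 6 of 6 pairs. Klk1b27 was well above background on 3 of 3 arrays in the -/- shTLS group alone. It thus entered the test through the group where it was high, and nothing is read from its calls here and below. Rnase2a had -1.17 (SE 0.47), lower in 5 of 6 pairs, with a limma adjusted p of 0.135, 0.0505 with the replicate block and 0.0171 with the mouse as a random block. In +/+ cells Rnase2a was well above background on 2 of 3 control and 0 of 3 shTLS arrays. The +/+ part of its average and pairs thus rests largely on readings that were not well above background. Both Pop4 probes were higher in 6 of 6 pairs, by 0.36 and 0.39, with adjusted p of 0.223 and 0.202, 0.0990 and 0.0930 with the replicate block, and 0.0364 and 0.0294 with the mouse as a random block. With that random block 6 of the 16 probes were called, against 37.5% of all. The others were Klk1b24 (adjusted p = 0.000719), Klk1b27 (adjusted p = 0.00874) and A_52_P397722 (adjusted p = 0.0097), while Ppp1r42 was not called (adjusted p = 0.0578). Igsf23, Tff3, Bmp2k and Zfp947 had effects of -0.54 to 0.46 and adjusted p of 0.441 to 0.937. The other 2 Atp2c1 probes had -0.03 and 0.25, with adjusted p of 0.953 and 0.538.

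The effects of shTLS on Klk1b27 and Ppp1r42 are given by genotype. Klk1b27 was higher with shTLS in -/- pairs by 1.31, 2.41 and 1.19 and differed in +/+ pairs by -0.06, -0.06 and 0.08. As no +/+ array was well above background for Klk1b27, an effect there could not be measured. Ppp1r42 was higher in -/- pairs by 0.74, 1.18 and 1.64 and differed in +/+ pairs by -0.44, -0.35 and 0.58. For Ppp1r42 the difference between genotypes was 1.26 (SE 0.67), given without a test since the genotype contrast under each vector chose the genes. Over all 24965 probes limma called 0 for this difference (66 at an unadjusted p under 0.05), and 0 with the replicate block.

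**Figure D4:**
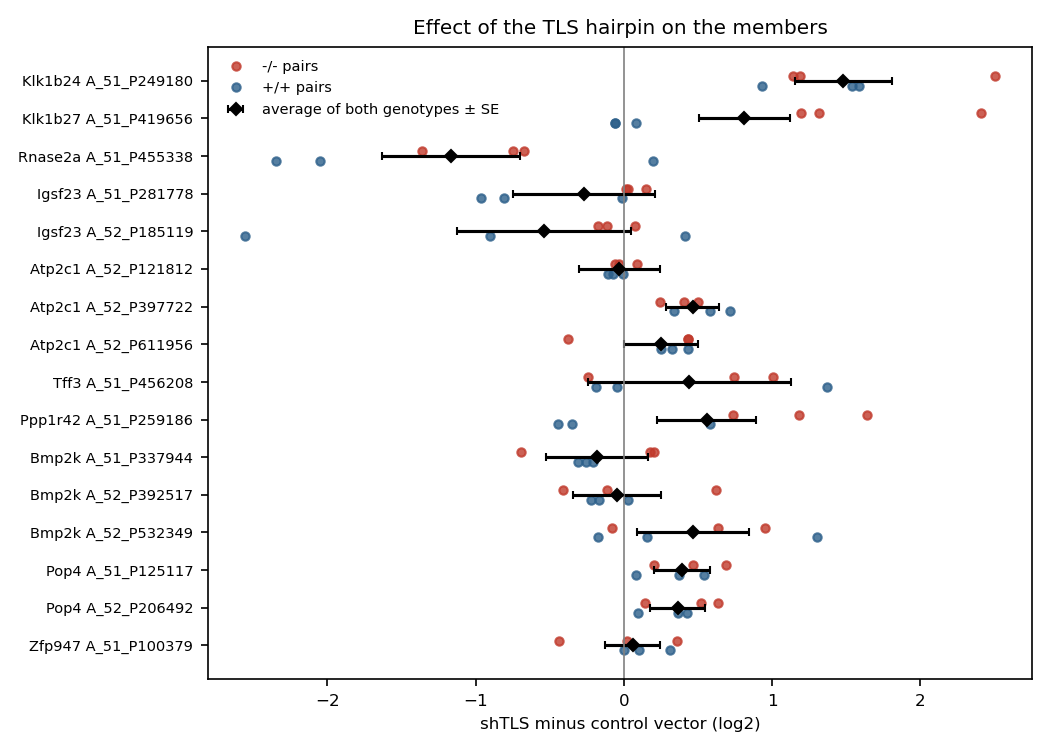
Effect of the TLS hairpin (shTLS minus control, log2, horizontal axis) on the 16 probes (rows), with 1 red point per -/- pair, 1 blue point per +/+ pair and black diamonds for the average over both genotypes ± SE. Klk1b24 is above 0 in 6 of 6 pairs at an average of 1.48, and Klk1b27 is above 0 in all 3 -/- pairs and near 0 in +/+ pairs. For both genes no +/+ array was well above background.

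Relatives of the 10 genes were read in the same test. Among the other tissue kallikreins 1 of 9 tested probes rose with shTLS and none fell, against 4.53% and 3.25% of all. That probe, Klk15 (limma adjusted p = 0.0300), was well above background on 3 of 3 -/- shTLS, 0 of 3 -/- control, 1 of 3 +/+ shTLS and 0 of 3 +/+ control arrays, so it entered the test through the -/- shTLS group. Its signal there was at least 1.49-fold higher than in -/- control cells. With the replicate block 4 of these 9 rose, against 14.7% of all. Among the 4, Klk1b21 and Klk15 were well above background on 3 of 3 arrays in the -/- shTLS group alone. They entered the test through that group, so nothing is read from this count. Among the other calcium pumps 1 of 8 probes rose, for Atp2a1, a pump of the sarcoplasmic reticulum (limma adjusted p = 0.0163). It was well above background on 0 of 6 control arrays, so it entered the test through the shTLS arrays, where it was high. Nothing is read from its call. With shTLS it was at least 2.30-fold higher in -/- cells and at least 1.62-fold higher in +/+ cells. In the carcinoembryonic antigen family, also of the immunoglobulin superfamily, 1 of 4 probes fell, for the adhesion molecule Ceacam1 (-0.95, SE 0.24, adjusted p = 0.0373). The other RNase A genes (8 probes), RNase P and MRP subunits (14), Numb-associated kinases (6), phosphatase regulators (3) and Tff1 (1) had none called.

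The genes were also placed on the genome by annotation order. Of the 10, 4 lie on chromosome 7 (Igsf23, Pop4, Klk1b27 and Klk1b24, in that order) and 2 on chromosome 17 (Zfp947 and Tff3). Chromosome 7 held 7.82% of the 12796 named genes tested. Igsf23 and Pop4 had 190 tested genes between them, Pop4 and Klk1b27 had 19, and Zfp947 and Tff3 had 145. Bmp2k lies on chromosome 5, as does Ppargc1a, with 136 tested genes between.

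Next to the 10 genes, 54 other genes were read on their brightest tested probe, 3 on each side of each gene. Of these 1, Klk1b21, did not overlap between genotypes, though its lowest -/- array was not well above background. The median absolute difference of the 54 genes was 0.33, against 0.24 over all probes. On the brightest probe all neighbours of Bmp2k, Igsf23, Atp2c1, Tff3, Pop4, Zfp947, Rnase2a and Ppp1r42 overlapped. Zfp52 and Zfp758, neighbours of Zfp947 with 2 tested probes each, did not overlap on their other probe. Sulf1, a neighbour of Ppp1r42, had 2.20. The 6 neighbours of Ppargc1a differed by -0.71 to 0.35 and overlapped.

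Within 50 tested genes on each side, non-overlapping genes other than the 10 were 8 of 100 around Zfp947, 5 of 100 around Igsf23, 4 of 100 around Ppargc1a (Psapl1, Bod1l, Atp8a1 and Ociad1), 3 of 98 around Pop4 and the kallikreins, 3 of 100 around Rnase2a and 3 of 100 around Bmp2k. Around Tff3 there was 1 of 100, around Atp2c1 there were 0 of 100 and around Ppp1r42 0 of 63. A gene was counted here if any of its tested probes did not overlap. Windows of this width over the whole genome, with all genes counted, had a median of 0 and a highest count of 11. Around Zfp947 these genes included the zinc finger genes Zfp52, Zfp758 and Zfp945. Around Igsf23 they included Cyp2b9, Cyp2b10 and Cyp2b13, cytochrome P450 genes of drug and steroid metabolism. Cyp2b9 averaged 10.15 in -/- shTLS and 9.59 in -/- control cells, against 13.38 in +/+ shTLS and 13.74 in +/+ control cells.

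Over all named genes tested, 109 (0.852%) did not overlap between genotypes. Of these 21 lay on chromosome 7, 15 on chromosome 5, 14 on chromosome 17, 13 on chromosome 11 and 11 on chromosome 14. The 13 on chromosome 11 were 1.19% of its tested genes. Chromosomes 10, 15 and X held none. The genotype fit with the replicate block called 0.845% of all probes and 117 named genes. Of these genes 21.4% lay on chromosome 7, 17.1% on chromosome 17, 16.2% on chromosome 14 and 11.97% on chromosome 5. In that order, the 4 chromosomes held 7.82%, 4.81%, 3.38% and 6.56% of the named genes tested.

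**Figure D5:**
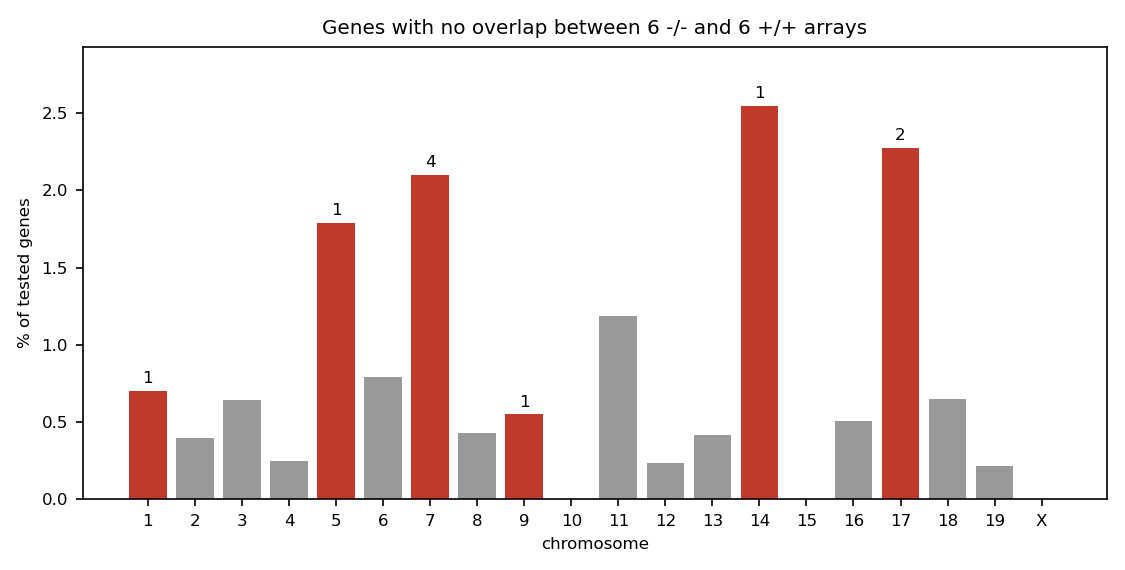
Share of tested named genes (%, vertical axis) whose 6 -/- and 6 +/+ arrays did not overlap, by chromosome (horizontal axis), with the number of the 10 described genes above red bars and grey bars for chromosomes with none. The bars of chromosomes 14, 17, 7 and 5 are the tallest, at 2.55%, 2.27%, 2.10% and 1.79%.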

How the data were processed

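Total RNA of 12 cultures was labelled with Cy3 and hybridized to 1-colour Agilent whole mouse genome arrays, per the labels' protocols. The deposited array files give the processed spot intensity, the median intensity of spot and background, and a flag for spots well above background, per the file headers, read with Agilent Feature Extraction 10.1.1.1 per the submitters' processing notes. The deposited table, used here unchanged, is on the log2 scale. Per the labels, the authors raised signals under 1 to a floor of 1 and applied quantile normalization. Its values correlated with the log2 processed signals at 0.998 or more on every array. Of 43379 spots per array 74 to 206 were flagged and none was saturated, and 22706 to 26680 of 41174 probes were well above background. The number of arrays limits the precision.

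Symbols came from RefSeq annotation of GRCm38.p6 through accessions (24375 probes matched, 16799 not). The array files name another build, so that annotation was used for names, chromosomes and gene order, and the printed coordinates are its own. One mouse gave both arrays of a number within a genotype. Same-numbered arrays deviated together (correlations of 0.216 to 0.670 in 4 group pairs), so the numbers pair the samples, also across genotypes by assay and slide. Tests used limma 3.58.1 in R 4.3.3 with 4 group means (8 residual degrees of freedom), two-sided, and were tested on simulated data. In the genotype fit over vectors, mouse entered as a random block with a correlation of 0.584. Alignment used Biopython 1.88 (match 1, mismatch -1, gap opening -2, gap extension -1). Every probe of the 10 genes, 3 neighbours on each side and the 2 most similar probes were named by rule. The genes and all lists were chosen with earlier results of these data known. Marker lists of endothelial, stellate and acinar cells and of sex-biased liver genes were also read.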

Additional observations from a re-analysis of the deposited data

Results flagged for a closer look

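The brighter Igsf23 probe (A_51_P281778) was singled out because the sign of its TLS hairpin effect differed between the 2 genotypes in every pair. The effect was 0.15, 0.03 and 0.01 in -/- pairs and -0.96, -0.01 and -0.81 in +/+ pairs. Its mean was 0.06 in -/- cells and -0.60 in +/+ cells. In pair 2 it was near 0 in both genotypes. The effect in -/- cells minus that in +/+ cells was 0.658 (SE 0.957). This difference was not tested for Igsf23, which was chosen on the genotype contrast under both vectors. The second Igsf23 probe had mixed directions, with means of -0.07 in -/- cells and -1.02 in +/+ cells.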

How the results depend on the processing

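The genotype differences of the 12 separating probes kept their sign under all alternatives run. Probes called for the hairpin numbered 13268 with spike-in scaling (727 higher, median effect of all probes -0.78, and 1759 of 2385 higher with 75th percentile scaling, against 1130 of 1942), 7183 with the replicate block, 9353 with the mouse as a random block, and 723 to 2442 when 1 array was left out (723 without -/- control 1, 766 without -/- control 2, 889 without -/- shTLS 2, 785 without -/- shTLS 3, 925 without +/+ control 1, 1276 without +/+ shTLS 2 and 768 without +/+ shTLS 3). For the genotypes over vectors, 22 calls became 7 with a filter for all arrays, 14 with no filter, 211 with the replicate block, 80 without the mouse block and 18 to 31 without 1 array. With the control hairpin, 20 became 4 and 12 with those filters, 7 with only the groups compared, 43 with the replicate block and 12 to 22 without 1 array. With shTLS, 18 became 3 with the filter for all arrays, 8 with normexp, 39 with the replicate block and 11 to 22 without 1 array. The difference between hairpin effects stayed at 0 calls in all 4 alternatives. The cause of these changes was not tested. Hairpin effects on the genes changed sign with spike-in scaling for Atp2c1 A_52_P397722 (-0.36) and A_52_P611956 (-0.48), Bmp2k A_52_P532349 (-0.25), Pop4 (-0.41 on both probes), Ppp1r42 (-0.28), Tff3 (-0.21) and Zfp947 (-0.65), with 75th percentile scaling for Bmp2k A_52_P392517 (0.15) and with normexp for Atp2c1 A_52_P121812 (0.024). Without 1 array they ranged over 0 for Atp2c1 A_52_P121812 (-0.21 to 0.14), Bmp2k A_51_P337944 (-0.39 to 0.016) and A_52_P392517 (-0.24 to 0.11), Igsf23 A_51_P281778 (-0.65 to 0.023) and A_52_P185119 (-0.99 to 0.032) and Zfp947 (-0.026 to 0.16). Signals near background limit Klk1b27, Klk1b24 and Rnase2a in +/+ cells and Tff3 in -/- cells. With 1 array left out, a group of 2 shared the spread of the others.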
